A study of Drosophila melanogaster with 9 samples.

Results

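The Drosophila dpr, DIP, beat and side genes encode 4 families of immunoglobulin-domain surface and secreted proteins, taken here as all genes whose current symbol belongs to one of these families in the annotation of the array. Of 54 such genes in the gene table used, 51 had a probe set of their own among 11982 named genes: 20 dpr, 10 DIP, 13 beat and 8 side genes, with 93 probe sets. beat-Ib, DIP-lambda and dpr21 had none and were not analysed here. Each gene was represented by its brightest probe set, the one with the highest mean over the 9 arrays.

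Dpr proteins bind DIP (Dpr-interacting) proteins, and Beat (Beaten path) proteins bind Side (Sidestep) proteins, each in a many-to-many network in which particular ligands pair with particular receptors. The families are known for matching neurons with their partners. Side on target tissue attracts motor axons that carry Beat-Ia, and DIP-alpha on motor neurons meets Dpr10 on muscle. In the fly brain and visual system, Dpr and DIP pairs are known for synaptic partner choice and for the survival of particular neurons.

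The arrays compared sorted cells of the larval body wall in 3 groups of 3 biological replicates, all from animals carrying GAL4[21-7] and UAS-mCD8:GFP, so that the driver and the marker were shared by all groups. Ab ME larvae carried UAS-abL in addition, giving ectopic Abrupt. Kn ME larvae carried UAS-knL:HA, giving ectopic Knot, and Control larvae had the driver and marker alone. The labels describe the driver as active in every class of dendritic arborization (da) neuron, the sensory neurons under the larval epidermis. Abrupt and Knot are transcription factors that each shape the dendrites of particular da classes, and misexpression puts them into classes that normally lack them. Each sample pooled dissected body walls of wandering larvae of the third instar, and the cells were sorted by mCD8:GFP. The deposited values are RMA values, taken as log2 units: a difference of 1 is a doubling on this scale, and RMA understates differences between dim probe sets.

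Array medians over all probe sets were 1.44 to 1.47 in Ab ME, 1.496 to 1.53 in Kn ME and 1.59 to 1.67 in Control. Pearson's r between replicates, over probe sets, was 0.984 to 0.985 in Ab ME, 0.974 to 0.977 in Kn ME and 0.93 to 0.944 in Control, so the Control arrays were the least alike. No pair of arrays was identical. No detection calls were used here, so values around 1.54, the median over every probe set and array, cannot be told from background.

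Most of these recognition genes were dim on these arrays. Their mean over the 9 arrays was below 4 for 50 of 51 genes and below 2 for 42, and 19 genes stayed below 1.54 on all 9 arrays. Of all named genes, 69% had a mean below 4. The group mean lay above 1.54 for 14 genes in Ab ME, 15 in Kn ME and 25 in Control. By family, these were 5, 5 and 9 of 20 dpr genes, 2, 2 and 3 of 10 DIP genes, 1, 1 and 5 of 13 beat genes, and 6, 7 and 8 of 8 side genes in Ab ME, Kn ME and Control. The side family was thus the one in which every gene stood above that median in Control, with means of 1.55 to 3.40. The medians of the Control arrays themselves, 1.59 to 1.67, lay above 1.54, and those of Ab ME and Kn ME lay below it. These counts are not corrected for that offset. side-VIII, at 1.55, lay below the median of each Control array.

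**Figure D1:**
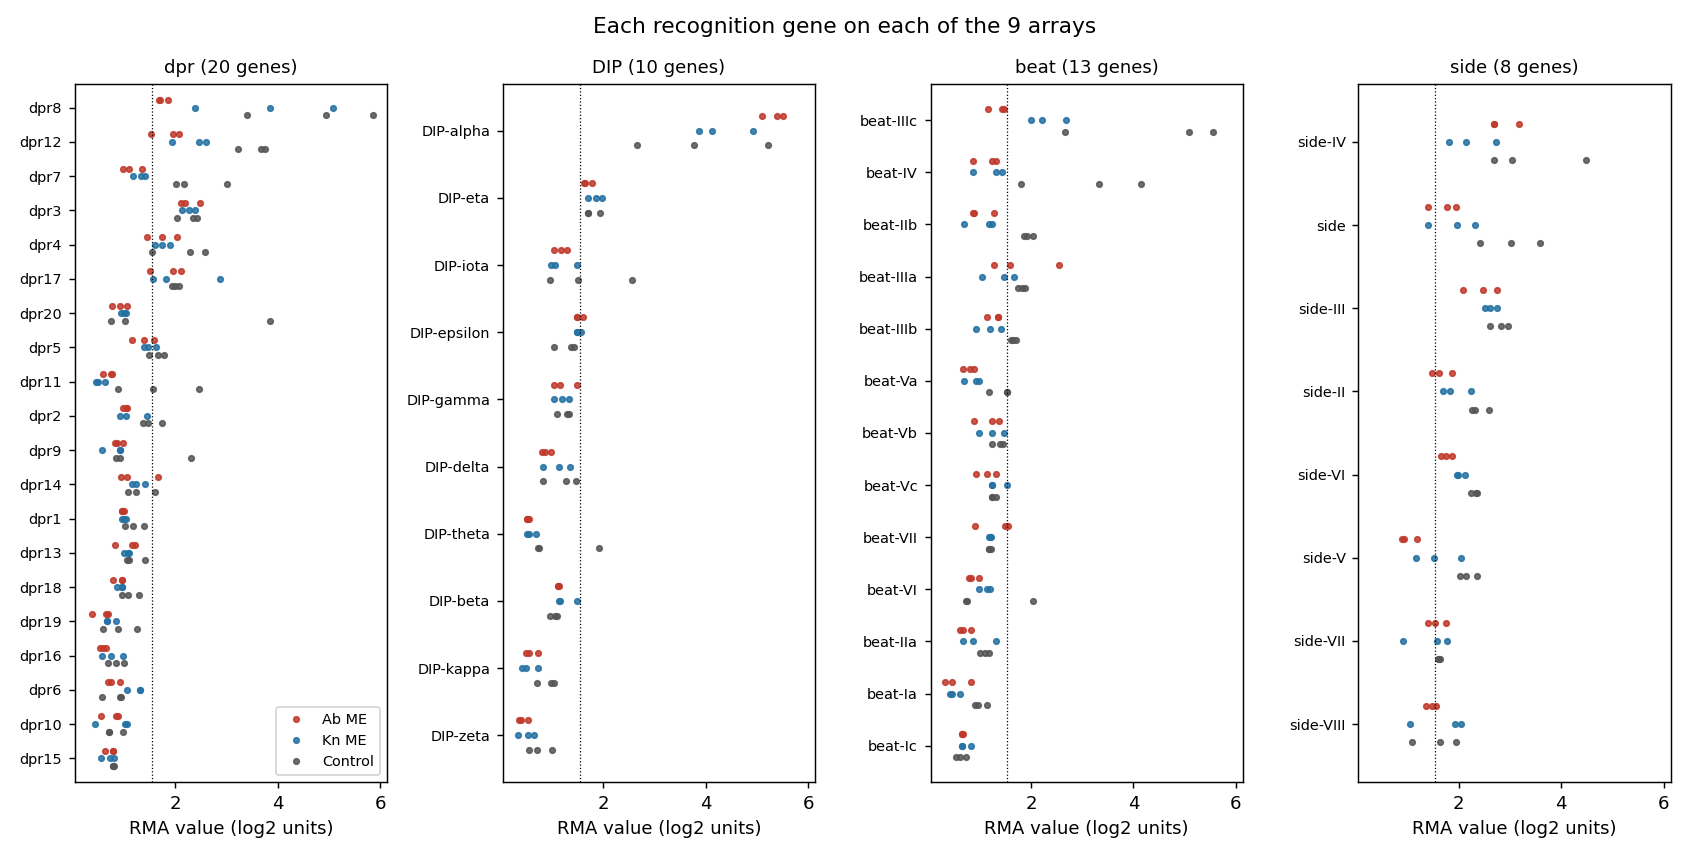
RMA value in log2 units (x axis) of the 51 genes (rows, in 4 panels by family) on each array, with Ab ME in red, Kn ME in blue and Control in grey. The dotted line is the median of all values, 1.54, and most points lie near or left of it, while 9 genes, among them dpr8, dpr12, beat-IIIc, side-IV and DIP-alpha, reach beyond 3 on at least 1 array.

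With ectopic Abrupt, 11 of the 51 recognition genes were lower than in Control and none was higher. The 11 were 3 dpr genes (dpr8, dpr12 and dpr7), 4 beat genes (beat-IIIc, beat-IV, beat-IIb and beat-Va) and 4 side genes (side, side-V, side-II and side-VI), and none of the 10 DIP genes passed. Their differences spanned -3.07 for beat-IIIc to -0.55 for side-VI. Calls are limma adjusted p-values (Benjamini-Hochberg over 18769 probe sets) under 0.05. The test takes a spread shared by all groups, although the Control arrays were the least alike. The members' share of 21.6% lower compares with 5.96% of the 11982 named genes called lower and 11.2% called higher, 17.2% in all. At an unadjusted p under 0.05 there were 16 members, among them DIP-alpha, which was higher. The share of named genes at that unadjusted threshold was not counted. Whether the families differ from each other was not tested.

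The members' differences had a median of -0.32 in Ab ME, against -0.0057 over all named genes, and 46 of 51 were below 0, against 50.4% of named genes. Brightness moved with this. Of 5799 named genes with a mean below 2, 75.8% were below 0 with a median of -0.16, while of 3712 genes at 4 or more, 23.0% were. The 42 recognition genes with a mean below 2 had 38 differences below 0 and a median of -0.28. After each array was centred on its median, the median of all named genes rose to 0.17 and that of the members to -0.15. Centring thus moved both, and the members' median stayed below that of all named genes. On the centred values 33 of 51 members were below 0, and the share of named genes below 0 was not counted. Of the 11 calls, 7 remained.

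**Figure D2:**
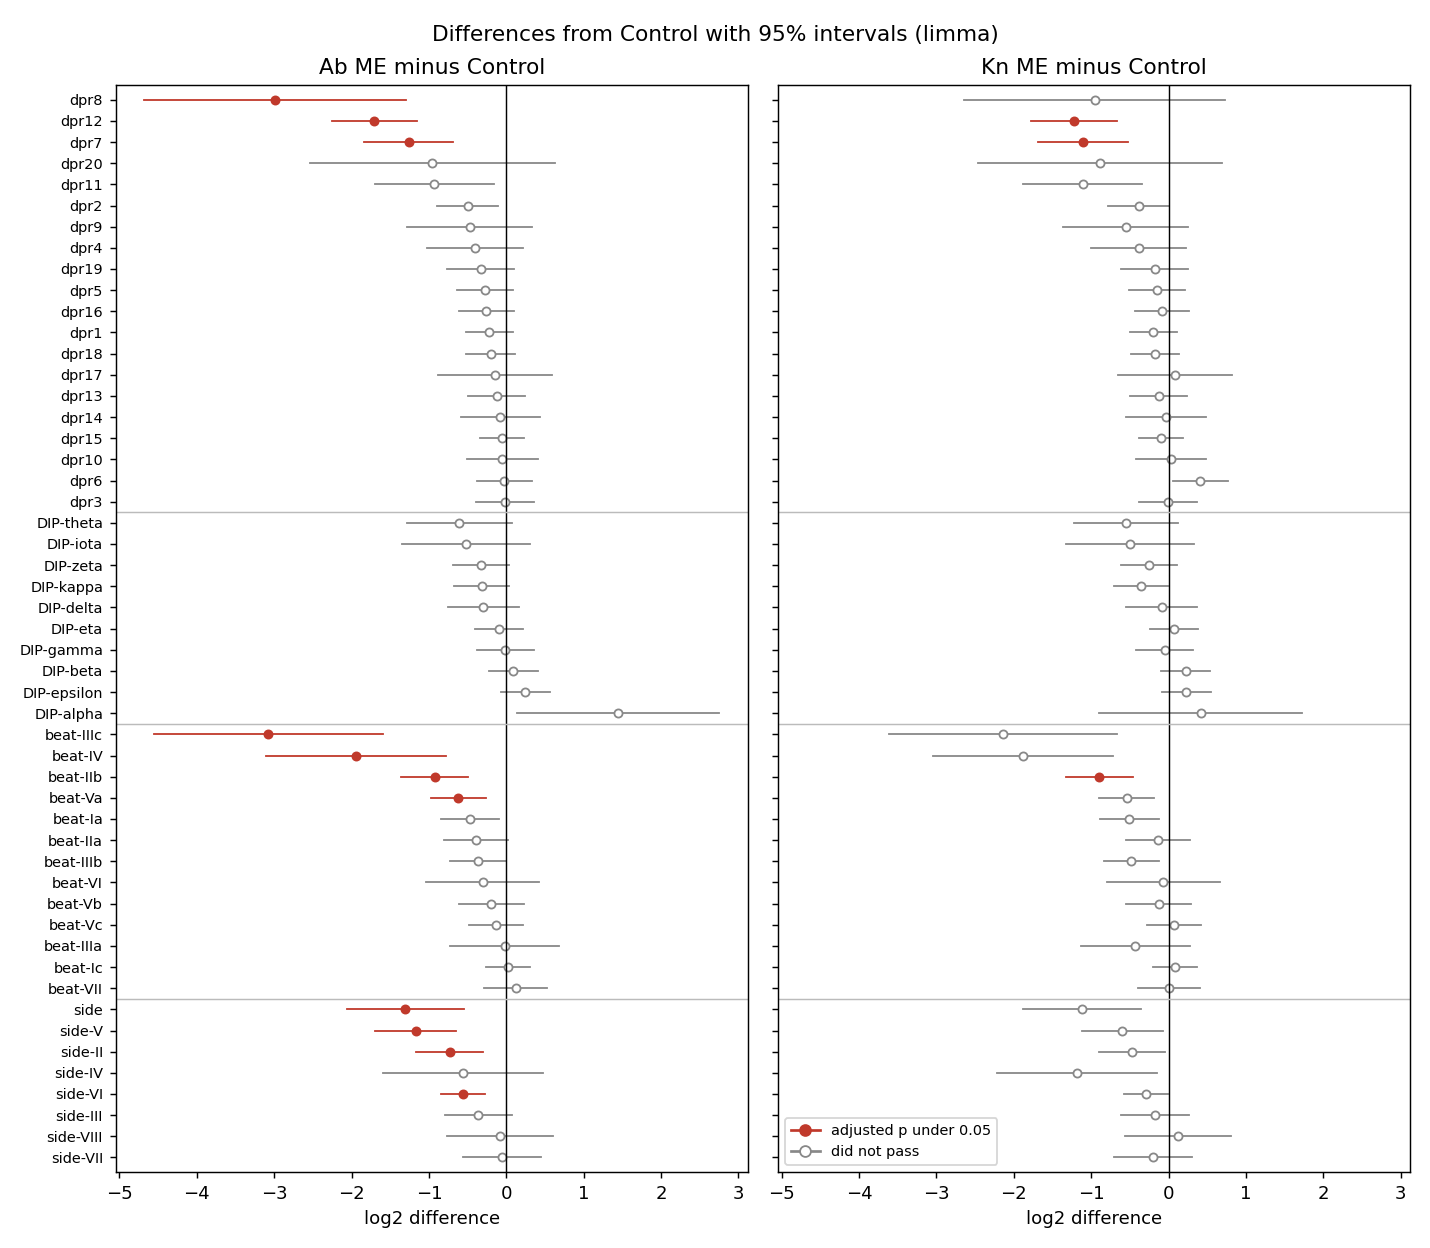
Log2 difference from Control with its 95% interval (x axis) for the 51 genes (rows, by family), for Ab ME on the left and Kn ME on the right. Filled red points passed at an adjusted p under 0.05: 11 in Ab ME and 3 in Kn ME, all below 0.

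Among the dpr genes, which encode ligands of the DIP receptors, dpr12 passed in the most alternative settings. Dpr12 is the partner of DIP-delta and is known for axon regrowth in the mushroom body. Its values were 2.07, 1.96 and 1.52 in Ab ME, 2.61, 1.93 and 2.46 in Kn ME, and 3.23, 3.68 and 3.75 in Control. All Ab ME and Kn ME arrays were below all Control arrays. Ab ME minus Control was -1.70 (SE 0.24, adjusted p = 0.00313). The call of dpr12 held in 16 of 17 alternative settings (highest adjusted p 0.249). Here and below, tallies of 17 leave out the filter on dim probe sets, which removed the gene's probe set. The setting that ended the call took the dimmest dpr12 probe set, and the other probe sets differed by -0.44 (adjusted p = 0.257) and -0.42 (adjusted p = 0.249).

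For dpr7, the values were 0.98, 1.34 and 1.10 in Ab ME, 1.18, 1.40 and 1.32 in Kn ME, and 3.01, 2.02 and 2.17 in Control. Its Ab ME and Kn ME arrays did not overlap those of Control. dpr7 has 1 probe set, so taking its dimmest one repeated the main fit and could not end a call. The same holds for the tallies of beat-IIb, beat-IV, beat-Va and side, in Ab ME and in Kn ME. With Abrupt the log2 difference was -1.26 (SE 0.25, adjusted p = 0.0142). dpr7 stayed past the threshold in 15 of 17 alternative settings (highest adjusted p 0.0571), and the call was lost without Ab ME replicates 1 or 3, each left out alone (adjusted p = 0.0533 to 0.0571).

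dpr8, whose product binds DIP-beta, had 1.69, 1.85 and 1.67 in Ab ME, 2.38, 3.85 and 5.08 in Kn ME, and 4.94, 3.39 and 5.86 in Control. The Ab ME arrays were all low and close together, and the Kn ME and Control arrays were spread over more than 2 units and overlapped. In Ab ME it differed from Control by -2.99 (SE 0.74, adjusted p = 0.0316). In 11 of 18 alternative settings dpr8 stayed past the threshold (highest adjusted p 0.382), and the call was lost without Control replicates 1 or 3, or without Ab ME replicates 1, 2 or 3, or without Kn ME replicate 2, each left out alone (adjusted p = 0.0514 to 0.0953). Its other probe sets differed by -0.65 (adjusted p = 0.224) and -0.49 (adjusted p = 0.382), and the call was lost with the dimmest of them.

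The remaining 17 dpr genes did not pass in Ab ME. Their differences lay between -0.96 (dpr20, adjusted p = 0.383) and -0.013 (dpr3, adjusted p = 0.966). dpr20 had 0.76, 1.06 and 0.92 in Ab ME, 1.03, 0.99 and 0.93 in Kn ME, and 0.75, 3.84 and 1.02 in Control, so its Control mean rested on replicate 2. dpr3 stayed between 2.04 and 2.47 on every array.

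The beat genes encode secreted or membrane-tied relatives of Beat-Ia. beat-IIIc had 1.16, 1.43 and 1.48 in Ab ME, 2.21, 1.99 and 2.67 in Kn ME, and 5.08, 2.66 and 5.56 in Control. The Ab ME arrays lay below the other groups, and Control replicate 2 overlapped Kn ME. Ab ME minus Control was -3.07 (SE 0.65, adjusted p = 0.0169). The call of beat-IIIc held in 12 of 17 alternative settings (highest adjusted p 0.0689), and the call was lost without Ab ME replicates 1, 2 or 3, each left out alone (adjusted p = 0.0544 to 0.0618). With only the 6 arrays compared the beat-IIIc call was lost too. Its other probe set differed by -1.70 (adjusted p = 0.0689), and the call was lost with it.

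beat-IV had 0.87, 1.25 and 1.33 in Ab ME, 0.87, 1.43 and 1.33 in Kn ME, and 4.15, 1.80 and 3.33 in Control. The groups did not overlap Control, but Control replicate 2 was close to them. With Abrupt the log2 difference was -1.95 (SE 0.51, adjusted p = 0.0387). beat-IV stayed past the threshold in 5 of 17 alternative settings (highest adjusted p 0.121), and the call was lost without Control replicates 1 or 3, or without Ab ME replicates 1, 2 or 3, or without Kn ME replicates 1, 2 or 3, each left out alone (adjusted p = 0.0568 to 0.121). It was also lost with quantile normalization, median centring, only the 6 arrays compared and a replicate block.

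beat-IIb, a partner of Side-IV, had 0.88, 0.89 and 1.28 in Ab ME, 0.70, 1.19 and 1.25 in Kn ME, and 1.93, 2.04 and 1.86 in Control. All arrays of both misexpression groups were below all Control arrays. In Ab ME it differed from Control by -0.92 (SE 0.19, adjusted p = 0.0154). In 15 of 17 alternative settings beat-IIb stayed past the threshold (highest adjusted p 0.0624), and the call was lost without Ab ME replicates 1 or 2, each left out alone (adjusted p = 0.0614 to 0.0624).

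beat-Va, a relative that pairs with Side-VI, had 0.89, 0.81 and 0.68 in Ab ME, 0.92, 0.69 and 0.99 in Kn ME, and 1.53, 1.18 and 1.52 in Control, below the median of all values on every array. Ab ME minus Control was -0.62 (SE 0.16, adjusted p = 0.034). The call of beat-Va held in 8 of 17 alternative settings (highest adjusted p 0.126), and the call was lost without Control replicates 1 or 3, or without Ab ME replicates 1, 2 or 3, or without Kn ME replicate 1, each left out alone (adjusted p = 0.054 to 0.118). Quantile normalization, median centring and use of only the 6 arrays compared also ended the beat-Va call. The other 9 beat genes did not pass, with differences from -0.47 (beat-Ia, adjusted p = 0.0957) to 0.12 (beat-VII, adjusted p = 0.669).

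Of the side genes, side itself encodes the attractant that motor axons follow. It had 1.95, 1.77 and 1.40 in Ab ME, 1.96, 1.40 and 2.31 in Kn ME, and 2.42, 3.58 and 3.02 in Control. The Ab ME arrays were all below Control, and so were those of Kn ME. With Abrupt the log2 difference was -1.30 (SE 0.33, adjusted p = 0.0357). side stayed past the threshold in 7 of 17 alternative settings (highest adjusted p 0.123), and the call was lost without Control replicates 2 or 3, or without Ab ME replicates 1, 2 or 3, or without Kn ME replicate 1, each left out alone (adjusted p = 0.0569 to 0.123). It was also lost with quantile normalization, only the 6 arrays compared, array weights and a replicate block.

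side-V had 1.19, 0.88 and 0.92 in Ab ME, 1.51, 1.16 and 2.04 in Kn ME, and 2.02, 2.35 and 2.13 in Control. The Ab ME arrays were below all Control arrays and the Kn ME arrays overlapped them. In Ab ME it differed from Control by -1.17 (SE 0.23, adjusted p = 0.0126). In 14 of 17 alternative settings side-V stayed past the threshold (highest adjusted p 0.63), and the call was lost without Ab ME replicates 2 or 3, each left out alone (adjusted p = 0.0504 to 0.0517). The other side-V probe set differed by -0.23 (adjusted p = 0.63).

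side-II had 1.61, 1.86 and 1.49 in Ab ME, 1.82, 2.23 and 1.69 in Kn ME, and 2.27, 2.58 and 2.31 in Control, with a difference of -0.73 (SE 0.19, adjusted p = 0.0366) in Ab ME. The call of side-II held in 5 of 17 alternative settings (highest adjusted p 0.636), and the call was lost without Control replicates 2 or 3, or without Ab ME replicates 1, 2 or 3, or without Kn ME replicate 1, each left out alone (adjusted p = 0.0548 to 0.126). Quantile normalization, median centring, a trend and robust prior, only the 6 arrays compared, array weights and the dimmest probe set also ended the side-II call. Of the 5 other side-II probe sets, 1 also passed (-0.58, adjusted p = 0.0299), and the others differed by -0.82 to -0.11. The brightest side-II probe set carries the suffix that Affymetrix gives to sets whose probes can match more than 1 transcript.

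side-VI, the partner of the Beat-V proteins, had 1.75, 1.86 and 1.66 in Ab ME, 1.96, 1.99 and 2.12 in Kn ME, and 2.24, 2.33 and 2.36 in Control. The arrays of each group were close together and the groups did not overlap. Ab ME minus Control was -0.55 (SE 0.12, adjusted p = 0.0221). side-VI stayed past the threshold in 9 of 17 alternative settings (highest adjusted p 0.35), and the call was lost without Ab ME replicates 1, 2 or 3, each left out alone (adjusted p = 0.0503 to 0.0851). Median centring, a trend and robust prior, only the 6 arrays compared, and the mean or the dimmest of its probe sets also ended the side-VI call. The other side-VI probe sets differed by -0.63 (adjusted p = 0.185) and -0.37 (adjusted p = 0.35). The 4 side genes that did not pass were side-IV (-0.56), side-III (-0.36), side-VIII (-0.083) and side-VII (-0.053).

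**Figure D3:**
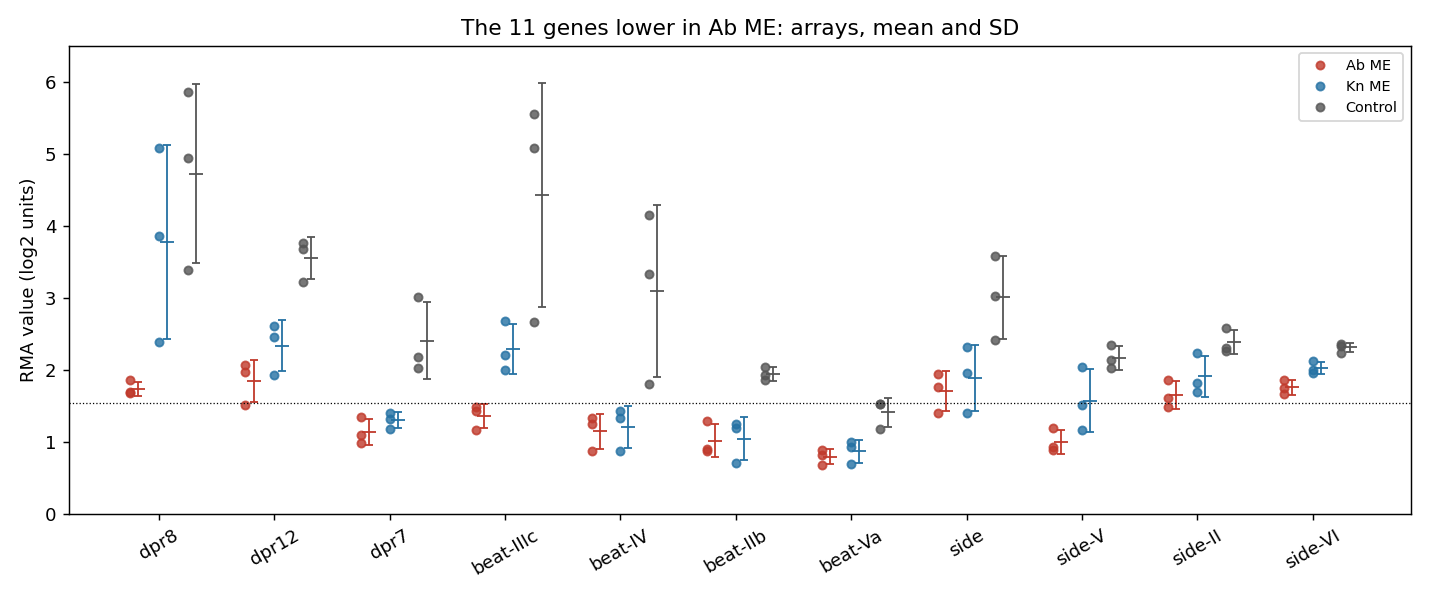
RMA value in log2 units (y axis) of the 11 genes that passed in Ab ME, on each array (points) with the mean and SD of 3 arrays (bars), in Ab ME, Kn ME and Control. The Ab ME points lie below all Control points for each of the 11 genes, and the Control points of dpr8, beat-IIIc and beat-IV are spread over more than 2 units.

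Of the 11 genes, 6 had more than 1 probe set, and their 13 other probe sets all differed in the same direction, by -1.70 to -0.11, with 1 past the threshold. Over all 93 probe sets, 12 passed as lower in Ab ME and 1 as higher. The rise was that of a dimmer DIP-epsilon probe set, named after its values were seen, with a difference of 0.86 (adjusted p = 0.0487). The brightest DIP-epsilon probe set differed by 0.25 (SE 0.14, adjusted p = 0.268). DIP-epsilon also passed as higher when each gene was given by the mean of its probe sets or by its dimmest one, and DIP-alpha did without Control replicate 3.

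**Figure D4:**
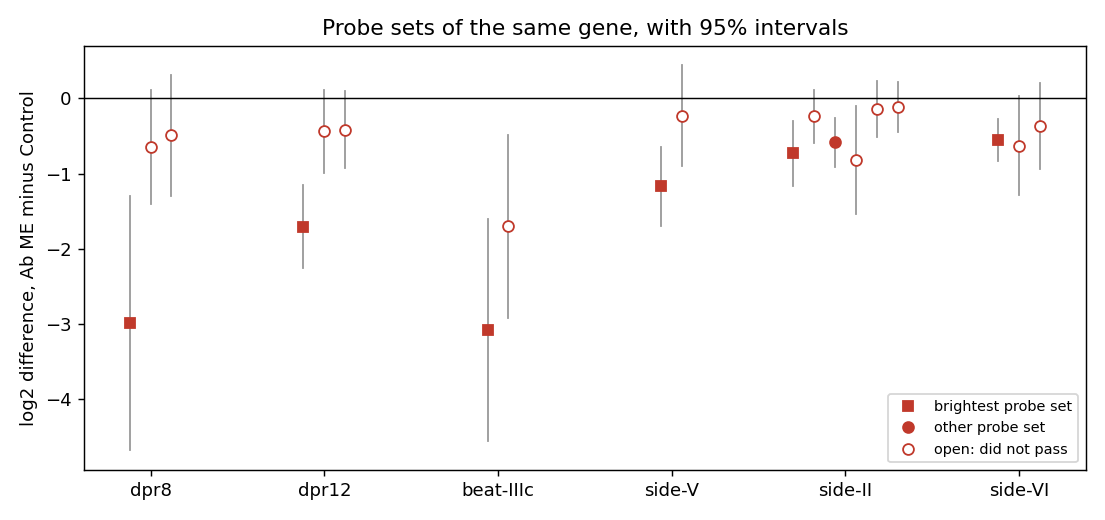
Log2 difference of Ab ME minus Control with its 95% interval (y axis) for every probe set of the 6 called genes that had several (x axis). Squares mark the brightest probe set and filled symbols those that passed: all 19 differences are below 0, and 1 of the 13 other probe sets passed.

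Fewer of these calls passed when 1 array was left out, which also leaves fewer samples. Over all probe sets in Ab ME, 985 calls were lower and 1637 higher with all arrays. These became 522 and 904 without Ab ME replicate 1, 546 and 861 without replicate 2, and 555 and 845 without replicate 3. Without Ab ME replicate 1, 2 of the 11 calls remained (dpr12 and side-V), without replicate 2 also 2 (dpr12 and dpr7), and without replicate 3 also 2 (dpr12 and beat-IIb). Without Control replicate 3, 6 of the 11 remained, and without Kn ME replicate 1, which enters through the shared spread, 7. With only the 6 arrays of Ab ME and Control, 5 remained.

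The DIP genes encode the receptors of the Dpr ligands. DIP-alpha was the only member with a mean of 4 or more over the 9 arrays. Its values were 5.40, 5.10 and 5.52 in Ab ME, 3.86, 4.92 and 4.12 in Kn ME, and 2.67, 3.77 and 5.22 in Control. The Control arrays were spread over 2.56 units and replicate 3 lay within the Ab ME range, so the groups overlapped. Its Ab ME difference of 1.45 (SE 0.57, adjusted p = 0.131) did not pass, and its 95% interval was 0.14 to 2.76. Without Control replicate 3 it was 2.12 and passed (adjusted p = 0.0147), 1 of 18 alternatives in which it did.

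DIP-kappa had 0.49, 0.56 and 0.72 in Ab ME, 0.50, 0.74 and 0.42 in Kn ME, and 1.04, 0.97 and 0.71 in Control, with a difference of -0.32 (SE 0.15, adjusted p = 0.202) in Ab ME and -0.35 (SE 0.15, adjusted p = 0.248) in Kn ME. All its values lay below the median of all values, as did those of DIP-zeta, DIP-beta, DIP-gamma and DIP-delta. The other DIP genes differed by -0.60 (DIP-theta) to 0.25 (DIP-epsilon) in Ab ME. DIP-beta and DIP-epsilon were the 2 members whose Ab ME arrays all lay above those of Control, while 20 members had all Ab ME arrays below Control, against 17.2% of named genes. In either direction, 38.5% of named genes did not overlap. The other DIP-beta probe sets differed by -0.47, -0.15 and 0.28 in Ab ME, and none passed. For those at -0.47 and -0.15, all Ab ME arrays lay below Control.

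With ectopic Knot, 3 of the 51 genes were lower than in Control and none was higher: dpr12, dpr7 and beat-IIb. This share of 5.88% compares with 2.32% of named genes called lower and 4.18% called higher, 6.5% in all. At an unadjusted p under 0.05 there were 16 members, among them dpr6, which was higher, and named genes were not counted at that threshold. The Ab ME and Kn ME comparisons use the same Control arrays, so they are not independent of each other. dpr12 differed by -1.22 (SE 0.24, adjusted p = 0.0266), dpr7 by -1.10 (SE 0.25, adjusted p = 0.0448) and beat-IIb by -0.90 (SE 0.19, adjusted p = 0.0333). In 7 of 17 alternative settings dpr12 stayed past the threshold (highest adjusted p 0.283), and the call was lost without Control replicates 2 or 3, or without Ab ME replicate 2, or without Kn ME replicates 1, 2 or 3, each left out alone (adjusted p = 0.0507 to 0.0856). The call of dpr7 held in 6 of 17 alternative settings (highest adjusted p 0.14), and the call was lost without Control replicate 3, or without Ab ME replicates 1, 2 or 3, or without Kn ME replicates 1, 2 or 3, each left out alone (adjusted p = 0.0529 to 0.14). beat-IIb stayed past the threshold in 7 of 17 alternative settings (highest adjusted p 0.0939), and the call was lost without Control replicates 2 or 3, or without Ab ME replicates 1 or 2, or without Kn ME replicates 1, 2 or 3, each left out alone (adjusted p = 0.0523 to 0.0939). With only the 6 arrays compared all 3 calls were lost. dpr12 was also lost with array weights, the dimmest probe set and a replicate block. Quantile normalization ended the calls of dpr7 and beat-IIb. Median centring and the block ended that of dpr7, and array weights that of beat-IIb.

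Other large differences in Kn ME did not pass. beat-IIIc differed by -2.14 (95% interval -3.62 to -0.66, adjusted p = 0.104), beat-IV by -1.89 (95% interval -3.05 to -0.72, adjusted p = 0.0746), side-IV by -1.18 (95% interval -2.21 to -0.15, adjusted p = 0.191), side by -1.12 (95% interval -1.88 to -0.36, adjusted p = 0.0994) and dpr11 by -1.11 (95% interval -1.88 to -0.34, adjusted p = 0.105). Without Control replicate 2, which had the lowest Control values of beat-IIIc, beat-IV and dpr11, these 3 genes passed (adjusted p = 0.00208, 0.00548 and 0.0214), while dpr12 and beat-IIb did not. side passed without Control replicate 1 (adjusted p = 0.0334). The members' median was -0.20 in Kn ME, against 0.002 over all named genes, and 40 of 51 were below 0, against 49.8% of named genes. In 13 members all Kn ME arrays lay below Control, against 10.6% of named genes, and in 3 all lay above it, where 24% of named genes did not overlap in either direction.

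Between the misexpression groups, none of the 51 genes passed limma's test, where 0.601% of named genes did (0.292% higher and 0.309% lower). At an unadjusted p under 0.05 there were 3, and named genes were not counted at that threshold. dpr8 differed by 2.03 (95% interval 0.34 to 3.72, adjusted p = 0.433), side-V by 0.57 (95% interval 0.053 to 1.10, adjusted p = 0.497) and dpr6 by 0.43 (95% interval 0.076 to 0.79, adjusted p = 0.428) in Kn ME minus Ab ME. The dpr8 values of Ab ME, 1.67 to 1.85, all lay below those of Kn ME, 2.38 to 5.08. Its fall in Ab ME and its Kn ME value that did not pass are therefore not shown to differ after adjustment.

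Known receptor and ligand pairs were followed in both groups. DIP-alpha pairs with Dpr6 and Dpr10. dpr6 had 0.93, 0.69 and 0.75 in Ab ME, 1.06, 1.30 and 1.30 in Kn ME, and 0.93, 0.94 and 0.57 in Control, and differed by -0.022 in Ab ME and 0.41 in Kn ME (adjusted p = 0.937 and 0.189). dpr10 had 0.84, 0.87 and 0.54 in Ab ME, 0.44, 1.01 and 1.05 in Kn ME, and 0.98, 0.71 and 0.71 in Control, with differences of -0.048 and 0.034. Both ligands were below the median of all values on every array, while DIP-alpha was above it on every array.

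DIP-beta pairs with Dpr8 and Dpr9. DIP-beta had 1.13, 1.13 and 1.13 in Ab ME, 1.13, 1.48 and 1.16 in Kn ME, and 1.06, 0.96 and 1.09 in Control, differences of 0.089 and 0.22. dpr9 had 0.83, 0.97 and 0.85 in Ab ME, 0.57, 0.92 and 0.92 in Kn ME, and 0.93, 0.84 and 2.30 in Control, so that Control replicate 3 stood above all other arrays, and differed by -0.47 and -0.56. Of this group, dpr8 was the member that passed, in Ab ME.

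DIP-gamma, a receptor known from photoreceptor targets and motor neurons, pairs with Dpr11, Dpr15, Dpr16 and Dpr17. It had 1.04, 1.50 and 1.15 in Ab ME, 1.04, 1.19 and 1.33 in Kn ME, and 1.29, 1.32 and 1.10 in Control, and differed from Control by -0.01 with Abrupt and -0.051 with Knot. dpr11 had 0.59, 0.77 and 0.74 in Ab ME, 0.63, 0.49 and 0.46 in Kn ME, and 1.57, 0.88 and 2.45 in Control, and all Ab ME and Kn ME arrays were below all Control arrays. Its Ab ME difference of -0.93 (SE 0.34, adjusted p = 0.104) did not pass, but it did without Control replicate 2 (-1.31, adjusted p = 0.0153). dpr15 had 0.79, 0.79 and 0.62 in Ab ME, 0.55, 0.72 and 0.79 in Kn ME, and 0.80, 0.78 and 0.78 in Control. dpr16 had 0.52, 0.59 and 0.65 in Ab ME, 0.56, 0.97 and 0.73 in Kn ME, and 0.69, 1.01 and 0.84 in Control. dpr17 had 2.11, 1.50 and 1.96 in Ab ME, 2.87, 1.56 and 1.81 in Kn ME, and 2.07, 2.00 and 1.93 in Control, and none of these 3 passed in either group.

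DIP-delta, the receptor of Dpr12, had 0.99, 0.81 and 0.87 in Ab ME, 1.34, 0.82 and 1.13 in Kn ME, and 1.27, 1.46 and 0.83 in Control. Its differences were -0.30 (95% interval -0.76 to 0.16, adjusted p = 0.351) in Ab ME and -0.088 (95% interval -0.55 to 0.37, adjusted p = 0.852) in Kn ME, beside the falls of dpr12.

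Beat-Ia is the receptor of Side. beat-Ia had 0.83, 0.46 and 0.32 in Ab ME, 0.42, 0.62 and 0.46 in Kn ME, and 0.90, 0.97 and 1.14 in Control. All Ab ME and Kn ME arrays were below all Control arrays, and the differences of -0.47 (95% interval -0.85 to -0.093, adjusted p = 0.0957) and -0.51 (95% interval -0.88 to -0.13, adjusted p = 0.128) did not pass. All its values lay below the median of all values.

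Beat-IIa and Beat-IIb pair with Side-IV. beat-IIa had 0.83, 0.67 and 0.61 in Ab ME, 0.68, 1.32 and 0.88 in Kn ME, and 1.00, 1.18 and 1.11 in Control, with differences of -0.39 and -0.14. side-IV had 3.17, 2.68 and 2.68 in Ab ME, 2.14, 1.80 and 2.72 in Kn ME, and 2.68, 4.49 and 3.04 in Control, so the groups overlapped in Ab ME, and the Ab ME difference was -0.56 (SE 0.45, adjusted p = 0.437). Of these 3 genes, beat-IIb was the one that passed, in both groups.

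The Beat-V proteins pair with Side-VI. beat-Vb had 1.23, 1.38 and 0.89 in Ab ME, 1.23, 1.48 and 0.99 in Kn ME, and 1.45, 1.24 and 1.40 in Control, and beat-Vc had 1.13, 1.32 and 0.93 in Ab ME, 1.23, 1.54 and 1.23 in Kn ME, and 1.25, 1.31 and 1.23 in Control. beat-Vb differed from Control by -0.20 with Abrupt and -0.13 with Knot, and beat-Vc by -0.14 and 0.068, and neither passed. Here a receptor gene, beat-Va, and the ligand gene, side-VI, both passed as lower in Ab ME. Their calls held in 8 and 9 of 17 alternative settings. Median centring, use of only the 6 arrays compared, and leaving out any Ab ME array ended both. beat-Va also lay below the median of all values on every array.

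Other surface proteins gave a comparison outside the 4 families. Of 31 other immunoglobulin surface genes measured, 7 fell and 1 rose in Ab ME (median -0.45), and 2 fell and none rose in Kn ME (median -0.23). Among the 51 recognition genes, 11 fell with Abrupt (median -0.32) and 3 with Knot (median -0.20). The shares of all named genes called lower were 5.96% with Abrupt and 2.32% with Knot. A larger share of falls than among named genes is thus not shown to be particular to the 4 families. The gene sets were not tested against each other. The immunoglobulin adhesion gene klg had 0.53, 0.43 and 0.66 in Ab ME, 1.16, 1.37 and 0.94 in Kn ME, and 4.22, 4.24 and 4.31 in Control, differences of -3.72 (SE 0.15, adjusted p = 2.94e-05) and -3.10 (SE 0.15, adjusted p = 0.000134). The netrin receptor gene unc-5 differed by -2.88 (SE 0.29, adjusted p = 0.000653) and -2.41 (SE 0.29, adjusted p = 0.00458). In Ab ME the Sidekick adhesion gene sdk differed by -1.47 (SE 0.28, adjusted p = 0.0114) and kek6, a leucine-rich repeat and immunoglobulin gene, by -0.56 (SE 0.13, adjusted p = 0.0252). Of 16 other recognition genes, 2 fell and 2 rose in Ab ME (median -0.55), and 1 rose and none fell in Kn ME (median -0.13). The teneurin gene Ten-m differed by 1.93 (SE 0.17, adjusted p = 0.000358) with Abrupt and 1.33 (SE 0.17, adjusted p = 0.00514) with Knot. The receptor gene Tl rose in Ab ME, by 2.77 (SE 0.58, adjusted p = 0.0164). In the same group the homophilic adhesion gene Con differed by -2.43 (SE 0.50, adjusted p = 0.0151) and the neurexin gene Nrx-1 by -1.04 (SE 0.27, adjusted p = 0.038).

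Marker genes of the cells in the sort also differed between the groups, and their association with the recognition genes was not tested. The mean value over the 51 recognition genes was 1.21 to 1.33 in Ab ME, 1.35 to 1.43 in Kn ME and 1.73 to 1.79 in Control. The mean over 13 neuronal markers was 2.55 to 2.87 in Ab ME, 2.94 to 3.39 in Kn ME and 4.24 to 4.70 in Control, and 7 of the 13 fell in Ab ME and 5 in Kn ME. The pan-neuronal gene elav had 4.82, 4.94 and 4.70 in Ab ME, 5.55, 5.69 and 5.01 in Kn ME, and 6.46, 6.06 and 6.29 in Control. The synaptic gene nSyb had 3.69, 3.73 and 4.04 in Ab ME, 5.08, 4.74 and 4.35 in Kn ME, and 6.78, 6.73 and 6.97 in Control. Among the neuronal markers, VAChT, Snap25 and Syn had means below the median of all values in both misexpression groups, and Rab3 in Ab ME. The mean over 5 channel genes of da neurons was 1.73 to 1.87 in Ab ME, 2.43 to 2.64 in Kn ME and 3.27 to 4.74 in Control. Of the 5, ppk26 and Ih were lower in both misexpression groups, ppk29 was higher in Ab ME, and ppk and pain passed in neither. ppk29 had 3.40, 3.14 and 2.79 in Ab ME, 2.14, 3.08 and 2.69 in Kn ME, and 1.44, 1.70 and 1.71 in Control, and differed by 1.49 (SE 0.26, adjusted p = 0.00708) with Abrupt and 1.02 (SE 0.26, adjusted p = 0.06) with Knot. Ih differed by -3.09 (SE 0.39, adjusted p = 0.00186) with Abrupt and -3.29 (SE 0.39, adjusted p = 0.00452) with Knot. ppk and ppk26 encode channel subunits of class IV da neurons, and ppk and pain had means below the median of all values in both misexpression groups. ppk had 0.40, 0.52 and 0.71 in Ab ME, 0.98, 0.92 and 1.03 in Kn ME, and 1.99, 1.64 and 4.84 in Control, and ppk26 had 1.39, 1.23 and 1.21 in Ab ME, 5.67, 4.05 and 5.09 in Kn ME, and 6.14, 7.39 and 7.37 in Control. In sorted bulk samples, fewer cells of a type and less RNA per cell cannot be told apart.

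Signal of other cell types moved too. The mean over 15 hemocyte (blood cell) markers was 9.07 to 9.24 in Ab ME, 8.65 to 8.78 in Kn ME and 5.96 to 7.59 in Control, with 14 higher in Ab ME and 8 in Kn ME. The hemocyte gene Hml had 11.29, 11.58 and 11.70 in Ab ME, 10.85, 10.83 and 10.72 in Kn ME, and 9.46, 8.83 and 7.70 in Control. Over 11 muscle markers the mean was 3.96 to 4.67 in Ab ME, 6.24 to 6.66 in Kn ME and 6.12 to 7.41 in Control, with 8 lower in Ab ME and none lower in Kn ME. No probe set was named Mhc here. Over 9 glial markers it was 3.18 to 3.46 in Ab ME, 3.45 to 4.16 in Kn ME and 4.42 to 4.84 in Control, with 4 and 3 lower, and repo, the defining glial factor, had 0.79, 1.05 and 1.50 in Ab ME, 0.61, 0.80 and 0.91 in Kn ME, and 2.02, 1.23 and 1.65 in Control. Over 9 markers of epidermis and cuticle it was 1.59 to 2.27 in Ab ME, 2.76 to 3.19 in Kn ME and 3.63 to 4.74 in Control, with 4 and 2 lower. Over 6 tracheal markers it was 3.47 to 4.15 in Ab ME, 4.17 to 4.40 in Kn ME and 5.42 to 5.76 in Control, with 4 and 3 lower and 1 higher in each. Over 4 fat body markers it was 1.79 to 2.29 in Ab ME, 2.73 to 3.50 in Kn ME and 3.62 to 4.73 in Control, with 2 and 0 lower, and over 6 markers of proliferating cells it was 4.82 to 5.20 in Ab ME, 3.67 to 4.13 in Kn ME and 2.70 to 3.19 in Control, with 5 and 2 higher. The part of these shifts in the lower values of the recognition genes was not tested.

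**Figure D5:**
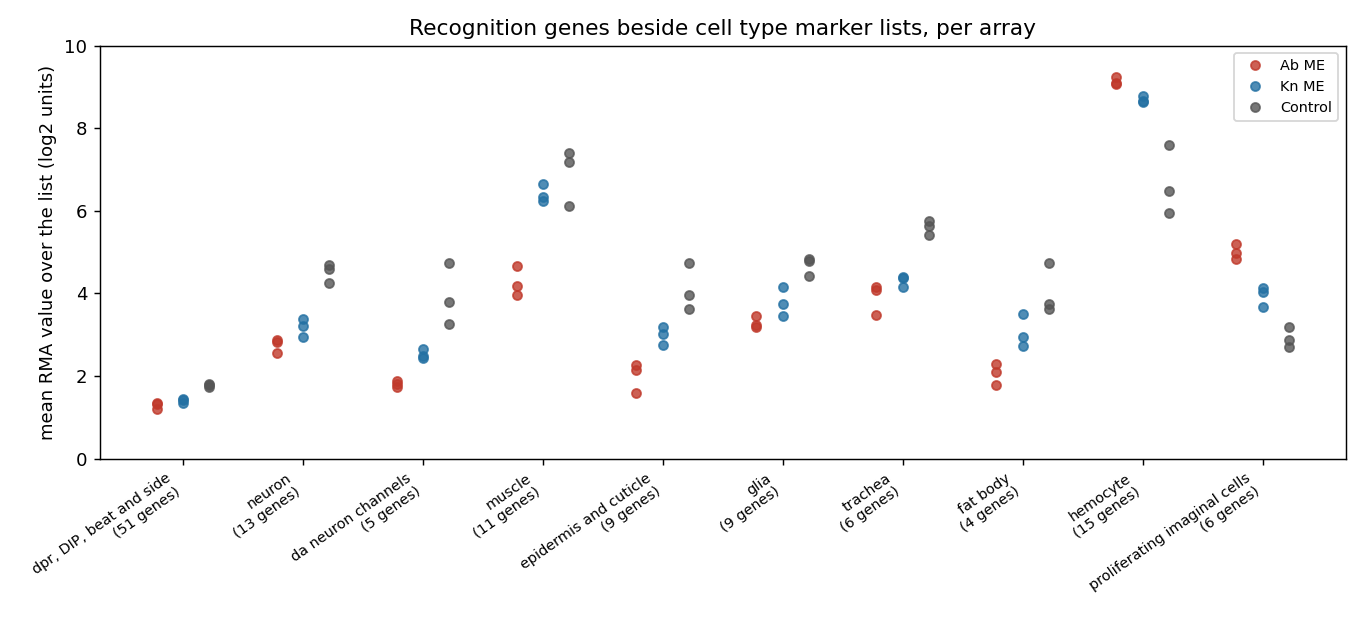
Mean RMA value in log2 units over each gene list (y axis) on each array (points), for the 51 recognition genes and 9 marker lists (x axis), in Ab ME, Kn ME and Control. The recognition genes and the neuronal, da channel, glial, tracheal, cuticle and fat body lists are lower on every Ab ME and Kn ME array than on every Control array, and the hemocyte and proliferation lists are higher.

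More of the recognition genes had a wide range in Control than in the misexpression groups. The 3 arrays of a group differed by more than 1 unit for 1 member in Ab ME, 3 in Kn ME and 13 in Control. The share of named genes with such a range was not counted. Over all probe sets, r between replicates was also lowest in Control (0.93 to 0.944), so the wide range is not shown to be particular to these genes. Of the 13, Control replicate 2 was the highest for dpr20, DIP-iota, beat-VI, dpr4, side and side-IV, and the lowest for beat-IIIc, beat-IV, dpr8, dpr9 and dpr11. Control replicate 3 was the highest for beat-IIIc, DIP-alpha, DIP-theta, dpr8, dpr9 and dpr11.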

How the data were processed

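Each of 9 single-colour Affymetrix Drosophila arrays measured total RNA of 1 sorted sample. Per the submitters' processing notes the authors used RMA, and the deposited values are read as log2 values from their range; version, variant and build are not given in the sources used here. Because files with detection calls or scan dates were not used here, neither background nor batch was examined; precision is limited by the number of arrays. The table held 18952 probe sets. Of these, 183 controls were left out and 18769 were tested, with no filter on dim ones. Names came from the platform annotation, and 13647 probe sets had 1 symbol, 402 several and 4720 none. Of the 13647, 13544 were brought to current symbols through gene identifiers (Release 6 plus ISO1 MT gene table). Probe sets shared with another gene (of DIP-epsilon and beat-Vb) were not used.

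limma 3.58.1 in R 4.3.3 fitted a term per group to all 9 arrays (6 residual, 2.44 prior degrees of freedom). Moderated 2-sided tests were adjusted by Benjamini-Hochberg over all 18769 probe sets, with a threshold of 0.05, and SE and 95% intervals come from the same model. That model takes the spread of a probe set as equal in all groups, and the SE and intervals do not allow for unequal spread. For beat-IIIc the SD was 0.17 in Ab ME, 0.35 in Kn ME and 1.55 in Control. The alternative with array weights gave each Control array less weight (0.39 to 0.60) than any other array (1.02 to 1.85). The fit was tested on simulated data. The members and lists were chosen with earlier results of these data known. Genes given with all their values were those past the threshold in any comparison, the 2 of each family with the smallest F test p, and the listed receptor and ligand pairs. From the lists of other surface proteins, the 4 with the smallest p were named, with elav, nSyb, Mhc, Hml and repo as markers. ppk, ppk26, ppk29, Ih, dpr20, dpr3 and DIP-epsilon were added after their values were seen. Alternatives changed the normalization, the dim filter (4 or more on 3 arrays), the prior, the arrays, the probe set rule, array weights and a replicate block. No sequences are shown, since the tables used here held none.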

Additional observations from a re-analysis of the deposited data

How the results depend on the processing

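Under none of the 18 alternatives did a member that passed change the sign of its difference. The count of members past the threshold in Ab ME, 11, became 7 with quantile normalization, 7 with median centring, 5 with only the 6 arrays compared, 6 with the dimmest probe set of each gene (5 lower and DIP-epsilon higher), 11 with the mean of its probe sets (10 lower, without side-VI, and DIP-epsilon higher) and 1 with the filter on dim probe sets, which left 2 of 51 members. In Kn ME the 3 became 1 with quantile normalization, 0 with the filter, 0 with the 6 arrays and 1 with the replicate block. The block gave 9 in Ab ME. Deviations of same-numbered arrays from their group means correlated at 0.034 to 0.27, and those of arrays with different numbers at -0.20 to 0.087. The labels name no pairs, so the main fit held no block. Whether the numbers mark shared handling was not tested. Leaving out 1 array gave 2 to 10 in Ab ME, 0 to 4 in Kn ME and 0 between the misexpression groups. The median difference of the members in Ab ME was -0.20 with quantile normalization, -0.15 with centring, -0.77 with the filter, -0.26 for the mean of probe sets and -0.23 for the dimmest, and -0.37 to -0.20 without 1 array. In Kn ME it was -0.12, -0.088 and -0.27 under the first 3 of these, and -0.26 to -0.19 without 1 array. The filter left dpr8 and DIP-alpha alone, which differed by -2.99 and 1.45 in Ab ME. The named genes it left had a median of 0.62 in Ab ME. Centring raised the median of all named genes by 0.17 in Ab ME and 0.11 in Kn ME. Over all probe sets in Ab ME, 1637 calls were higher and 985 lower as deposited, 899 and 915 with quantile normalization, and 2384 and 743 with centring. Of the other surface recognition genes, 12 passed in Ab ME, 7 with the filter, 6 with 6 arrays and 4 to 14 without 1 array. In Kn ME 3 passed, and 5 with the filter, 5 with the trend and robust prior, 5 with array weights, 5 for the mean of probe sets and 3 to 7 without 1 array. The filter tests fewer probe sets and the left-out arrays leave fewer samples; other causes were not tested.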

Other observations

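Several of the recognition genes lie close together on a chromosome arm, in the order of protein-coding genes in the gene table, and their differences from Control were set side by side. On arm 2L, beat-IIIa and beat-IIIc have 5 genes between them, and differed by -0.021 and -3.07 in Ab ME and by -0.43 and -2.14 in Kn ME. beat-IIIb, 7 genes from beat-IIIa, differed by -0.37 and -0.48. The beat-IIIa values are those of its brightest probe set. Its other probe sets differed by -0.45 (adjusted p = 0.0684) and -0.13 (adjusted p = 0.569) in Ab ME. On arm 3R, beat-Va has 1 gene between it and beat-Vc and 3 between it and beat-Vb, and the 3 differed by -0.62, -0.14 and -0.20 in Ab ME. beat-IIb and beat-IIa, with 4 genes between them, differed by -0.92 and -0.39 in Ab ME and by -0.90 and -0.14 in Kn ME. dpr5 and dpr4 are direct neighbours and differed by -0.27 and -0.40 in Ab ME, and neither passed. dpr6 and dpr10, the ligands of DIP-alpha, have 5 genes between them on arm 3L and differed by -0.022 and -0.048 in Ab ME. Of these neighbours, beat-IIIc, beat-Va and beat-IIb passed in Ab ME, each beside a family member that did not. Whether neighbours differ from each other was not tested.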
